A study of Mus musculus with 15 samples.

Results

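Inherited parkinsonism genes are genes whose mutations cause, or have been linked to, familial forms of parkinsonism. Of these, 7 were described here in mouse striatum: Vps35, Lrrk2, Atp13a2, Pink1, Park7, Fbxo7 and Uchl1. They were taken by symbol from the deposited expression table and are 7 of its 15569 genes. Striatum is the input nucleus of the basal ganglia and the main target of the midbrain dopamine neurons that are lost in parkinsonism. The tissue came from C57Bl/6J pups at postnatal day 14, and the exposures were aerosols given to their dams during gestation. The 15 libraries form 4 groups, with 4 libraries labelled untreated (control), 3 labelled paraquat, 4 labelled titanium dioxide (TiO2, as nanoparticles) and 4 from a mixture of both agents. Paraquat is a redox-cycling herbicide and TiO2 nanoparticles are a particulate material. The labels give no dose, litter, dam, sex or batch, so p-values measure the spread between these libraries, which may be technical or shared within a litter.

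The genes act at different points of a cell's membrane and protein turnover. VPS35 is the core of retromer, the complex that carries receptors from endosomes back to the trans-Golgi network and the plasma membrane. LRRK2 is a kinase that phosphorylates Rab GTPases on vesicles and lysosomes, and ATP13A2 is a lysosomal P5-type ATPase that exports polyamines. PINK1 is a kinase that marks damaged mitochondria for removal through the ubiquitin ligase Parkin, and PARK7 (DJ-1) is a redox-sensitive protein of the oxidative defence. FBXO7 is a substrate-recognition subunit of an SCF ubiquitin ligase, and UCHL1 is a ubiquitin C-terminal hydrolase that is abundant in neurons.

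The members differ widely in base composition, a property on which the libraries also differed. Coding stretches of 150 bases are shown for the most GC-poor member and for the 2 most GC-rich ones, with every G and C in capitals, taken from the middle of the longest coding sequence in GENCODE M21 (GRCm38, the assembly also called mm10). They cover bases 1120 to 1269 of the Vps35 coding sequence, 796 to 945 of Pink1 and 1678 to 1827 of Atp13a2, counted from the A of the start codon.
Vps35: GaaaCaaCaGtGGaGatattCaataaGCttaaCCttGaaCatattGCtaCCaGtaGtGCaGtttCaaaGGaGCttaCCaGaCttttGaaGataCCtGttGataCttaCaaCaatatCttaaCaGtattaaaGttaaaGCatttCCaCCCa
Pink1: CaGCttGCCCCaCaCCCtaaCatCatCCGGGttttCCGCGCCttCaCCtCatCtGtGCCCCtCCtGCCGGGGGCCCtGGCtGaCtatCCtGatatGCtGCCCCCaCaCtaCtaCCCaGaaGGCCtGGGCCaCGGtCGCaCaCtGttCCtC
Atp13a2: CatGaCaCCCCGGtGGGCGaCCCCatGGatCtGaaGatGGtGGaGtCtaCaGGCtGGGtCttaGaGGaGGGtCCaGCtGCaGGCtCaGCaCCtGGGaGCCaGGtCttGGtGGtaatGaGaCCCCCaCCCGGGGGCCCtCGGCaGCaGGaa
G and C make up 34.7% of the Vps35 stretch, 62.7% of the Pink1 stretch and 64% of the Atp13a2 stretch. Over the longest transcript of each gene the GC content was 37.8% for Vps35, 45.5% for Lrrk2, 46.5% for Fbxo7 and 52.9% for Park7. It was 56.8% for Uchl1, 59% for Pink1 and 62.5% for Atp13a2, against a median of 49.2% over all genes. At the third codon position it ran from 38.6% in Vps35 to 76.6% in Atp13a2.

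In GRCm38, Vps35 lies at chr8:85260392-85299802 on the minus strand, Lrrk2 at chr15:91673175-91816120 on the plus strand and Atp13a2 at chr4:140986873-141007330 on the plus strand. Pink1 lies at chr4:138313409-138326307 and Park7 at chr4:150897133-150914437, both on the minus strand. Fbxo7 lies at chr10:86021972-86051873 and Uchl1 at chr5:66676091-66687234, both on the plus strand. All 7 are protein-coding. Values cover each whole gene, exons pooled, and whether counting used strand is not given in the sources used here. Without strand, reads of Vps35 cannot be told apart from those of Orc6 over 171 exonic bases, those of Uchl1 from the antisense gene Uchl1os over 295 bases, and those of Fbxo7 from A230060F14Rik over 314 bases.

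Promoter windows from RefSeq (GRCm38.p6) were matched for 6 of the 7 genes. The 250 bases before the RefSeq transcript start of Pink1 and Atp13a2, and of Park7, the other gene of the mitochondrial and redox pair, are shown, with GGGCGG (the GC box bound by Sp1) and TGCGCA (the core of the NRF1 site) in capitals on either strand. Over the 15 libraries the levels of Pink1 and Atp13a2 had a Pearson r of 0.63 (permutation adjusted p = 0.114) and a Spearman rho of 0.71 (0.0446). The Pearson r was 0.23 after libraries were corrected for a trend along GC content. The windows are chr4:138326297-138326546 on the minus strand for Pink1, chr4:140986671-140986920 on the plus strand for Atp13a2 and chr4:150909922-150910171 on the minus strand for Park7. The RefSeq starts differ from the outermost GENCODE starts given above, so the Atp13a2 and Pink1 windows reach a short way into those gene spans, and the Park7 window lies wholly within its span.
Pink1: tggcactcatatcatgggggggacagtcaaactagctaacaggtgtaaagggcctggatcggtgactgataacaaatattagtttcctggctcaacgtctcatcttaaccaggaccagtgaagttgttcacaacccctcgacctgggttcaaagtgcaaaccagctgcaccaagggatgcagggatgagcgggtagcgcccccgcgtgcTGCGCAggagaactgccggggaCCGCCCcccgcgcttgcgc
Atp13a2: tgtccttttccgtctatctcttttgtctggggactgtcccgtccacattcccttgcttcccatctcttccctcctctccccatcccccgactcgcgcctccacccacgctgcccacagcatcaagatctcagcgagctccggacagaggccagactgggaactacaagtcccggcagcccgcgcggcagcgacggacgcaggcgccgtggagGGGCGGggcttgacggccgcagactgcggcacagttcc
Park7: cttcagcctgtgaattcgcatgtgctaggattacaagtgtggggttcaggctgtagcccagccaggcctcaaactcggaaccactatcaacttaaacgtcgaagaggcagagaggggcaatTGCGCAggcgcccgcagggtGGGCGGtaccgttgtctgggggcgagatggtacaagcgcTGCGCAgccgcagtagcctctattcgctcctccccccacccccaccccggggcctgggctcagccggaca
The Pink1 window holds 1 copy of each motif, Park7 holds 1 GC box and 2 copies of TGCGCA, and Atp13a2 holds 1 GC box. GGGCGG occurs in 32.7% and TGCGCA in 6.43% of the 32851 windows of this length. Lrrk2 has 2 GC boxes, while neither motif was found in the first windows of Fbxo7 and Uchl1. CACGTG (the E-box within the CLEAR element of lysosomal genes), TGACGTCA, CCAAT and TATAAA, present in 6.02%, 1.55%, 33.8% and 12.4% of windows, were in none of the first windows of these 6 genes. A match is a run of letters and not a measured binding site.

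The libraries had the profile of striatum. The medium spiny neuron genes Ppp1r1b and Penk averaged 10100 and 16100 normalised reads, a count divided by a size factor for its library. Depth was 8690925 to 14207513 reads in the 11 libraries where it could be recovered. Several measures of the whole library differed in mean between the groups, though none passed a test against control after adjustment. The GC tilt of a library, which is the correlation over genes between its log2 deviations and GC content, had a mean of −0.20 for control. It was 0.21 for the paraquat group, 0.14 for TiO2 and −0.10 for the mixture (exact two-sided permutation p = 0.0857, 0.0857 and 0.514 against control). The share of mitochondrial transcripts was 21% ± 0.916 (SD, n = 4) in control, 17.8% ± 0.911 (n = 3) in paraquat, 18.9% ± 1.87 (n = 4) in TiO2 and 19.9% ± 0.973 (n = 4) in the mixture. The summed signal of 12 myelin markers ranged from 41600 to 62000 in control and from 91600 to 106000 in paraquat, from 57100 to 89900 in TiO2 and from 49300 to 85000 in the mixture. That of 14 medium spiny neuron markers ranged from 92200 to 101000, 79600 to 88600, 85900 to 94800 and 78900 to 92300, and that of 8 cortical neuron markers from 719 to 1490, 1600 to 5280, 1100 to 2650 and 2410 to 4240, in the same order. Over 33 such library tests the lowest adjusted p was 0.118, and with these group sizes no raw p could fall below 0.0286. The part of these measures in the results below was not tested except where GC content is named, and in whole tissue fewer cells of a type and less RNA per cell cannot be told apart.

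All 7 genes were detected in every library, at very different levels. Per kilobase of merged exon and averaged over the 15 libraries, Uchl1 stood at 3330 normalised reads, among the most abundant of all genes (rank 51). Pink1 followed at 212, Vps35 at 141, Park7 at 119, Atp13a2 at 85.9, Fbxo7 at 34.2 and Lrrk2 at 24.3. The lowest Uchl1 library (2600 per kilobase) lay far above the highest Pink1 library (267), and the lowest Atp13a2 library (67.8) lay above the highest Fbxo7 library (40.4). The other neighbours in this order overlapped in their ranges over libraries. From the lowest to the highest library, a gene's level spanned from 1.45-fold for Uchl1 to 1.75-fold for Lrrk2.

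**Figure D1:**
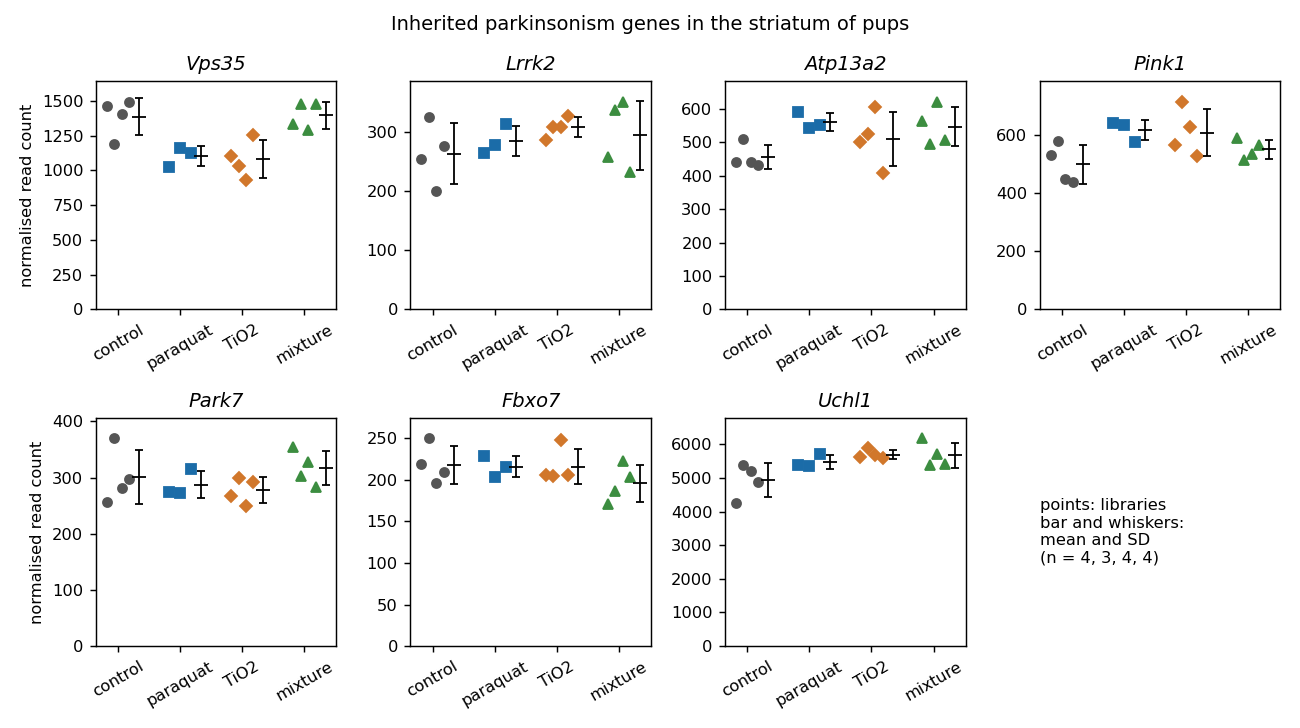
Normalised read counts (vertical axes, starting at 0) of the 7 genes in each library, by group; points are libraries and the bar with whiskers is the mean and SD (n = 4, 3, 4 and 4). Vps35 is lower in all 3 paraquat libraries (1023 to 1164) than in any control library (1192 to 1493) and reads 1291 to 1477 in the mixture. Atp13a2 is higher in every paraquat library, and Uchl1 in every TiO2 library, than in any control library. Lrrk2, Pink1, Park7 and Fbxo7 overlap control after each exposure.

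Vps35, the retromer core, was the only one of the 7 genes that passed the test against control. Its level in control libraries 1 to 4 was 1459.6, 1192, 1402 and 1493 normalised reads. In paraquat libraries 1 to 3 it was 1023, 1164 and 1127, and every one of these was below every control library. In TiO2 libraries 1 to 4 it was 1105, 1029.9, 932 and 1253, of which the last lay inside the control range. In mixture libraries 1 to 4 it was 1337, 1474, 1291 and 1477, all within the control range and all above every paraquat and every TiO2 library. The group means were 1387 ± 135 (SD, n = 4), 1105 ± 72.9 (n = 3), 1080.1 ± 135 (n = 4) and 1395 ± 95 (n = 4).

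With all 15 libraries in a single limma fit on log2(value + 1) and Benjamini-Hochberg adjustment over 15556 genes, Vps35 fell by 0.33 ± 0.10 (SE) on the log2 scale after paraquat, which is a level 20.2% below control (limma adjusted p = 0.0337). Against the same 4 control libraries it fell by 0.36 ± 0.09 after TiO2, or 22.3% (limma adjusted p = 0.016). The mixture differed from control by 0.01 ± 0.09, with a 95% interval from −0.17 to 0.20 (limma adjusted p = 0.98). At a threshold of 0.05 the paraquat comparison called 10.4% of all genes (6.34% higher and 4.06% lower), the TiO2 comparison 6.4% (4.3% and 2.1%) and the mixture comparison 1.19% (1.12% and 0.0707%). The count of 1 called gene of 7 is near the background of the paraquat and TiO2 comparisons and says nothing about the 7 genes as a set. In the mixture limma called 0 of the 7, as did edgeR and DESeq2, while Uchl1 and Atp13a2 had an unadjusted p under 0.05 (0.0111 and 0.0173). Over all genes 12.2% had an unadjusted p under 0.05 in that comparison. Groups that did not overlap were also common, at 21.2% of all genes for paraquat against control.

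The paraquat call of Vps35 was held in 9 of 17 alternative analyses, with the direction the same in all 17. It was lost without control library 1, 3 or 4, without paraquat library 1 or 3, with the replicate number as a block (limma adjusted p = 0.0549), and when libraries were corrected for a trend along GC content. The highest adjusted p was 0.158. The TiO2 call was held in 14 of 18 and lost without control library 1 or 4 or TiO2 library 2 or 3, with a highest adjusted p of 0.0706.

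Vps35 departed from additivity of the 2 single-exposure differences on the log2 scale. The interaction is the log2 change of the mixture less those of the 2 single exposures, and is 0 where both agents add up. For Vps35 it was 0.70 ± 0.13 (95% interval 0.43 to 0.97, limma adjusted p = 0.00242). It was called in all 24 alternatives, with values from 0.40 to 0.77 and adjusted p from 5.68e-05 to 0.0121. The interaction called 11.8% of all genes (5.41% higher and 6.36% lower), and Vps35 ranked 114 of 15556 by p. A test for any difference among the 4 groups called Vps35 too (limma adjusted p = 0.011, held in 24 of 24 alternatives), against 6.78% of all genes. Against paraquat alone the mixture held 0.34 ± 0.10 more Vps35 (limma adjusted p = 0.172) and against TiO2 alone 0.37 ± 0.09 more (limma adjusted p = 0.142), which did not pass the test. Those comparisons called 0.00643% and 0% of all genes with limma (2235 and 1768 genes at an unadjusted p under 0.05, 125 and 54 genes with DESeq2, 1 and 0 with edgeR), while 13.8% and 6.71% of genes had groups that did not overlap, as Vps35 did in both. Paraquat and TiO2 differed in Vps35 by 0.04, with a 95% interval from −0.16 to 0.24.

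**Figure D2:**
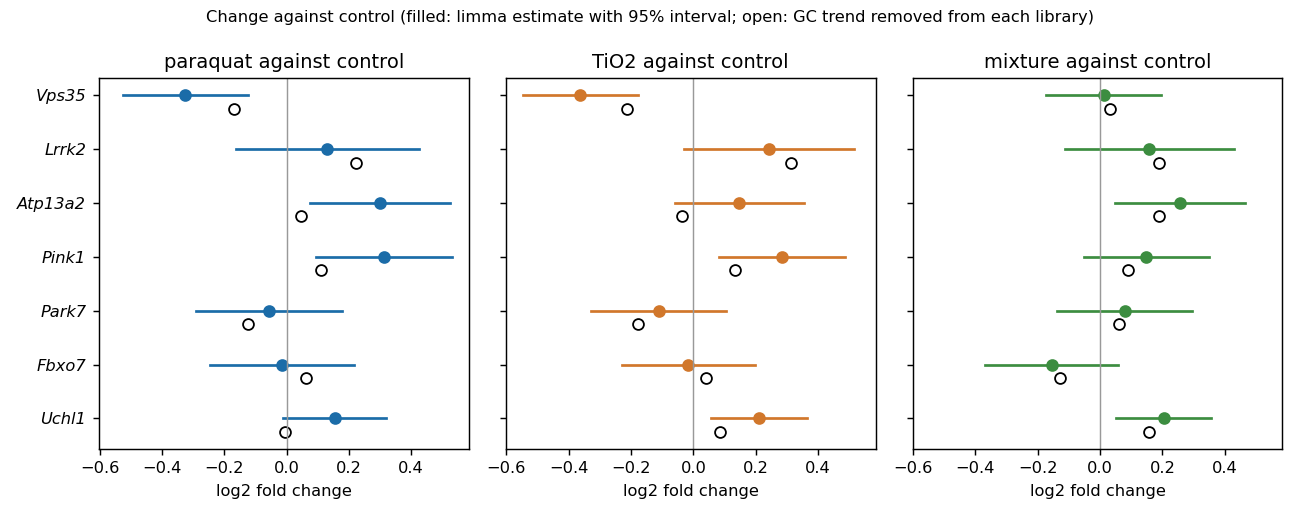
Log2 fold change against control (horizontal axes) of the 7 genes for each exposure; filled points and lines are the limma estimate and its 95% interval, and open circles are the estimate after correction of each library for GC content. Vps35 moves from −0.33 to −0.17 for paraquat and from −0.36 to −0.21 for TiO2, and the open circles of Atp13a2, Pink1 and Uchl1 lie nearer to 0 than the filled points. Those of Lrrk2 lie farther from 0 for each exposure, and those of Park7 and Fbxo7 for paraquat and TiO2.

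The level of Vps35 followed the GC tilt of its library. The tilt is computed over all genes from these same values, so GC-poor genes tend to fall with it and GC-rich genes to rise. The p-values of this relation, here and for the other members below, therefore do not single out a member. How many of all genes follow the tilt as closely was not tested. Over the 15 libraries, log2 Vps35 and the library's correlation with GC content had a Pearson r of −0.92 and a Spearman rho of −0.87 (permutation p = 1e-05 and 6e-05 of 100000 permutations, the first being the smallest they can give; adjusted over 7 relations, 7e-05 for r). Without control library 1 and TiO2 library 3, which lay farthest from the median tilt, r was −0.89, and over deviations from the group means it was −0.95, so libraries of the same group differed in the same way. Control library 2, with the lowest Vps35 of its group, had the highest tilt of the 4 controls (0.072), and TiO2 library 4, with the highest Vps35 of its group, had the lowest of the 4 TiO2 libraries (−0.12). Genes called lower after paraquat had a median GC content of 44.3% and those called higher 55.2%.

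With the GC trend removed from each library, the paraquat difference of Vps35 was −0.17 ± 0.06 (limma adjusted p = 0.0892) and no longer passed, while the TiO2 difference of −0.21 ± 0.06 (0.0254) and the interaction of 0.41 ± 0.08 (0.00345) still did. After this correction Vps35 still fell with the GC tilt of the library (Pearson r −0.66), so its corrected values are not independent of the tilt. Removing the trend also removes any effect of the exposures that runs along GC content, and these cannot be told apart.

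**Figure D3:**
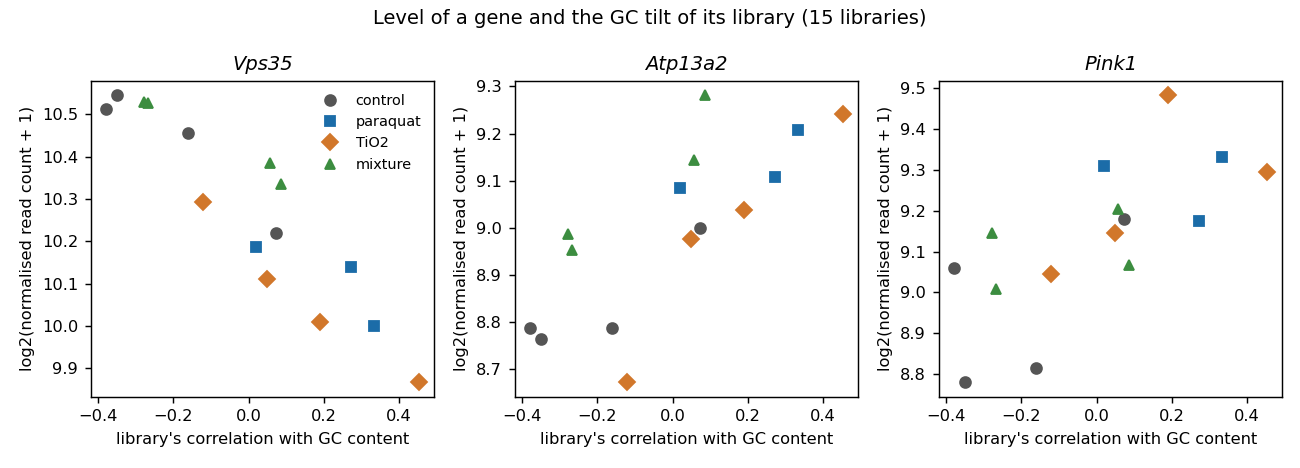
Level of Vps35, Atp13a2 and Pink1, as log2(normalised read count + 1), against the correlation of each of the 15 libraries with GC content; each point is a library, coloured and shaped by group. Vps35 falls along the horizontal axis (r = −0.92), while Atp13a2 (r = 0.76) and Pink1 (r = 0.70) rise.

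Among the other subunits of retromer, Vps29 was the one that passed a test against control. Vps29 averaged 3160 ± 229 normalised reads in control and 2640 ± 128 in paraquat, a fall of 0.26 ± 0.08 on the log2 scale (limma adjusted p = 0.0439) that was held in 8 of 17 alternatives and not with the GC trend removed (adjusted p = 0.319). The alternative subunits Vps26a and Vps26b differed from control by 0.00 and −0.11 after paraquat, and by −0.19 and 0.00 after TiO2, with no call. Of 26 retromer subunits and partners, 0 rose and 1 fell after paraquat, and 0 were called after TiO2 or the mixture, beside 10.4%, 6.4% and 1.19% of all genes. At an unadjusted p under 0.05 there were 7 after TiO2 and 3 after the mixture, beside 23.3% and 12.2% of all genes. Their median log2 differences were −0.02, 0.00 and 0.02, beside −0.01 for all genes tested in each comparison. The receptor Sort1, a retromer cargo, and Vps35l, the paralogue of Vps35 in the retriever complex, were likewise not called against control. In the interaction 3 of the 26 were called higher and 1 lower, beside 11.8% of all genes called. These were Vps29 (0.37, limma adjusted p = 0.0326), the WASH complex subunit Washc4 (0.48, 0.0442) and the endosomal J-domain protein Dnajc13 (0.37, 0.041), which is itself linked to parkinsonism, and the sorting nexin Snx1 (−0.41, 0.0434). With the GC trend removed, 0 were called higher and 1 lower, beside 454 higher and 687 lower over all genes.

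**Figure D4:**
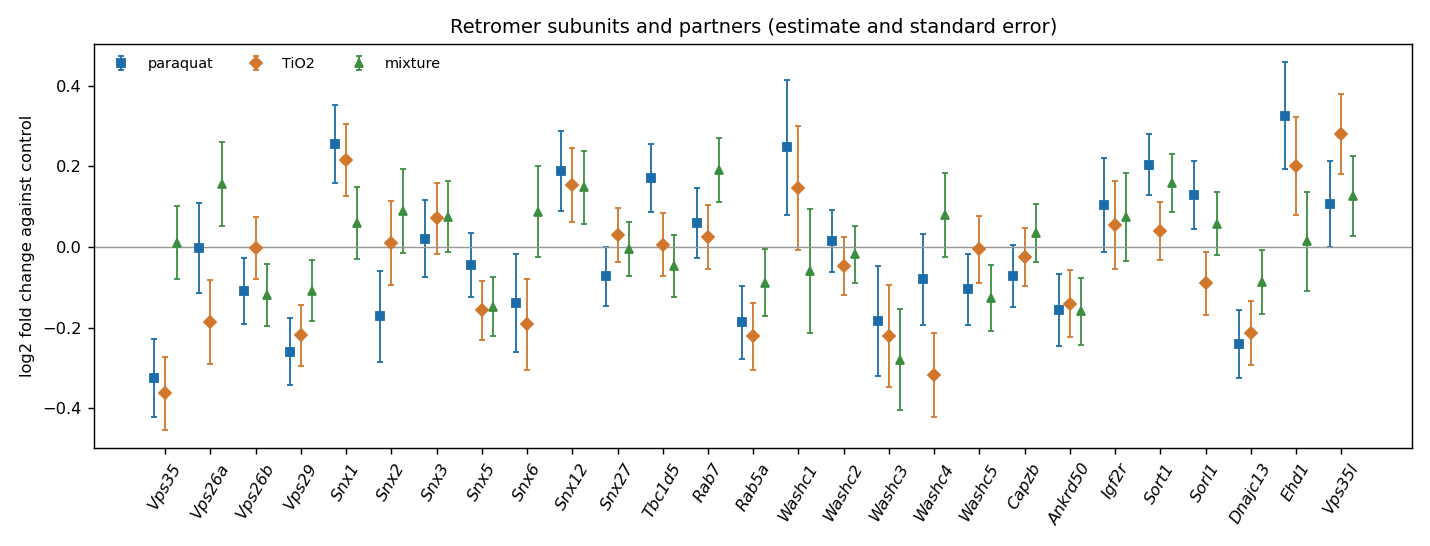
Log2 fold change against control of Vps35 and the 26 listed retromer subunits and partners, with the standard error of the limma fit, for paraquat, TiO2 and the mixture. Vps35 has the lowest paraquat and TiO2 values shown, and Vps29 is the other gene with a call, after paraquat (−0.26).

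The genes most like Vps35 over the 15 libraries were Dnaja1 (Pearson r 0.97), Itfg1 (0.97) and Cul3 (0.96), and all 3 were called lower after paraquat and after TiO2. They were chosen for this likeness, so their direction is no support for that of Vps35. Dnaja1, a cochaperone, changed by −0.38 and −0.39 (limma adjusted p = 0.0229 and 0.0171). Itfg1 and the ubiquitin ligase scaffold Cul3 have a GC content of 34.9% and 38.5%, and Dnaja1 of 41.2%. Orc6, the gene on the opposite strand that overlaps the 5′ start of Vps35, differed by −0.34 after paraquat (limma adjusted p = 0.0623) and by −0.29 after TiO2 (0.113).

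Lrrk2, the Rab kinase, was the least abundant of the 7 per kilobase and the most variable. It read 254, 324, 200 and 275 in control libraries 1 to 4, and 264, 278 and 313 in paraquat. TiO2 libraries read 286, 308, 308 and 327, and mixture libraries 258, 336, 351 and 231, so all groups overlapped. The differences from control were 0.13 ± 0.14, 0.24 ± 0.13 and 0.16 ± 0.13 for the 3 exposures in that order (limma adjusted p = 0.595, 0.274 and 0.69). The widest 95% interval, for paraquat, ran from −0.16 to 0.42. With the GC trend removed the differences were larger, at 0.22 ± 0.15, 0.31 ± 0.14 and 0.19 ± 0.14 (limma adjusted p = 0.413, 0.21 and 0.607). The genes most like Lrrk2 were Id2 and Fam107a, both at r 0.88, and Tmem132c at 0.87.

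Of 32 substrates and partners of LRRK2 tested, 2 rose and 1 fell after paraquat, where 10.4% of all genes were called. After TiO2 3 rose, beside 6.4% of all genes called, and after the mixture 1 rose, beside 1.19%, so these counts say nothing particular about the list. Rab3a, a Rab of synaptic vesicles and an LRRK2 substrate, averaged 2000 ± 190 in control, 3050 ± 382 after paraquat, 3000 ± 95 after TiO2 and 2600 ± 149 after the mixture. Its rises of 0.60 ± 0.09, 0.59 ± 0.08 and 0.38 ± 0.08 passed the test (limma adjusted p = 0.000233, 9.18e-05 and 0.0216). Both single-exposure calls were held in every alternative run, and that for the mixture in 14 of 18. Rab3b rose by 0.54 ± 0.09 after TiO2 (limma adjusted p = 0.00066). The 14-3-3 protein gene Ywhag rose by 0.30 ± 0.07 after paraquat and by 0.26 ± 0.07 after TiO2 (limma adjusted p = 0.0115 and 0.0202), and the fission GTPase gene Dnm1l fell by 0.34 ± 0.11 after paraquat (0.044). The median differences of the list were −0.04, 0.01 and 0.00 for the 3 exposures.

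Atp13a2, the lysosomal polyamine exporter, was higher in every paraquat library than in every control library without passing the test. The groups of this comparison did not overlap, in either direction, for 21.2% of all genes. Control libraries 1 to 4 read 440.3, 511, 440.5 and 434, and paraquat libraries 1 to 3 read 591, 542 and 551. TiO2 libraries read 502, 525, 604 and 407, and mixture libraries 564, 495, 621 and 506, and both groups overlapped control. The differences from control were 0.30 ± 0.11, 0.15 ± 0.10 and 0.26 ± 0.10 (limma adjusted p = 0.0763, 0.396 and 0.265). Without control library 2, which read highest of the controls, the paraquat difference passed (adjusted p = 0.041), and with the GC trend removed it was 0.05 (0.759). Atp13a2 rose with the GC tilt of the library (r 0.76, rho 0.81, permutation p = 0.00092 and 0.00022, adjusted p for r 0.00322, r 0.69 without the 2 libraries named above, and 0.90 over deviations from group means). The genes most like Atp13a2 were Ptprn (r 0.92), Eno1 (0.89) and Rab11fip3 (0.88), with GC contents of 59.5%, 57.4% and 58.6%.

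Among 47 other P5-type ATPases, lysosomal enzymes and membrane proteins, 8 rose and 0 fell after paraquat, 4 rose and 1 fell after TiO2, and 0 were called after the mixture (3 at an unadjusted p under 0.05). Over all genes 6.34% rose and 4.06% fell after paraquat, and 4.3% rose and 2.1% fell after TiO2. For the mixture 12.2% of all genes had an unadjusted p under 0.05. Grn, the progranulin gene, averaged 403 ± 46.8 in control and 751 ± 295 after paraquat, a rise of 0.83 ± 0.19 (limma adjusted p = 0.0147), and rose by 0.85 ± 0.18 after TiO2 (0.0107). The proton pump subunit gene Atp6v0a1 rose by 0.35 ± 0.08 after paraquat (limma adjusted p = 0.0102), Syt11 by 0.29 ± 0.08 (0.0191) and Cln6 by 0.55 ± 0.15 (0.021). After TiO2 the acid ceramidase gene Asah1 fell by 0.34 ± 0.09 (limma adjusted p = 0.0274) and the cholesterol carrier gene Npc2 rose by 0.36 ± 0.10 (0.0254). The median over the list was 0.05 after paraquat and 0.04 after TiO2, beside −0.01 for all genes, and with the GC trend removed 5 and 4 genes rose and 0 fell. Over all genes, with the GC trend removed, 801 were called higher and 438 lower after paraquat, and 655 and 253 after TiO2. Of 12 polyamine genes, spermine oxidase Smox rose and spermine synthase Sms fell after each single exposure, by 0.49 ± 0.14 and 0.35 ± 0.09 for paraquat (limma adjusted p = 0.0244 and 0.0117) and by 0.47 ± 0.13 and 0.30 ± 0.08 for TiO2 (0.0255 and 0.0219), in comparisons that called 10.4% and 6.4% of all genes.

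Pink1, the mitochondrial kinase, had higher means after all 3 exposures, none past the threshold. Control libraries 1 to 4 read 533, 579, 449 and 438. Paraquat libraries read 643, 633 and 577, so the lowest of them lay just inside the control range. TiO2 libraries read 566, 715, 627 and 527, and mixture libraries 589, 514, 535 and 566, both overlapping control. Paraquat differed from control by 0.31 ± 0.11 (limma adjusted p = 0.0571), TiO2 by 0.28 ± 0.10 (0.0808) and the mixture by 0.15 ± 0.10 (0.587). The first passed in 3 of 17 alternatives, among them DESeq2 (adjusted p = 0.0493) and the fit without control library 2 (0.0201).

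The interaction of Pink1 was −0.45 ± 0.14 (95% interval −0.75 to −0.15, limma adjusted p = 0.0434), opposite in sign to that of Vps35. It was held in 12 of 24 alternatives and lost with the GC trend removed (−0.16 ± 0.13, adjusted p = 0.515), and without any 1 of 10 libraries. The 10 were control 1, 3 and 4, paraquat 1 and 2, TiO2 2 and 3, and mixture 2, 3 and 4. Pink1 rose with the GC tilt of the library (r 0.70, rho 0.72, permutation p = 0.00324 and 0.00311, adjusted p for r 0.00756, r 0.73 without the 2 farthest libraries, 0.47 over deviations). Over the 21 pairs among the 7 genes, Pink1 and Vps35 had r −0.76 and rho −0.75 (permutation p = 0.00088 and 0.00202, adjusted 0.0185 and 0.0424), r −0.69 without control library 4 and TiO2 library 2, and −0.39 with the GC trend removed. Pink1 and Atp13a2 had r 0.63 and rho 0.71 (permutation p = 0.0109 and 0.00425, adjusted 0.114 and 0.0446), r 0.66 without the same 2 libraries, and 0.23 with the GC trend removed. The genes most like Pink1 were Rab15 (r 0.90), Pgp (0.89) and Tssc4 (0.88).

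Of 36 genes of PINK1 and Parkin mitophagy, 1 rose and 3 fell after paraquat, 1 rose and 3 fell after TiO2, and 0 were called after the mixture (3 at an unadjusted p under 0.05). Over all genes 10.4% were called after paraquat and 6.4% after TiO2, so 4 of 36 is near the background for paraquat. An unadjusted p under 0.05 in the mixture was reached by 12.2% of all genes. The mitochondrial ubiquitin ligase gene March5 averaged 369 ± 22.6 in control, 287 ± 6.09 after paraquat, 283 ± 27 after TiO2 and 363 ± 18.9 after the mixture. It fell by 0.36 ± 0.09 and 0.38 ± 0.09 after the single exposures (limma adjusted p = 0.0158 and 0.0086) and its interaction was 0.72 ± 0.13 (0.00139). Its call for TiO2 was held in all 18 alternatives. The autophagy receptor genes Tax1bp1 and Sqstm1 moved apart after paraquat, by −0.29 ± 0.08 and 0.31 ± 0.09 (limma adjusted p = 0.0226 and 0.0261). The import receptor gene Tomm70a fell by 0.35 ± 0.09 after paraquat (limma adjusted p = 0.0197) and the presequence peptidase gene Pmpcb by 0.33 ± 0.10 after TiO2 (0.0371). The list's median was −0.09 after each single exposure. Of 7 other mitophagy receptors, Bcl2l13 was called, rising by 0.27 ± 0.08 after TiO2 (limma adjusted p = 0.0377).

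Park7, the redox-sensitive DJ-1 gene, showed no call in any comparison. Control libraries read 257, 369.5, 282 and 297, and paraquat libraries 275, 273 and 315. TiO2 libraries read 268, 299.9, 249 and 292, and mixture libraries 354, 303, 328 and 283, with all groups overlapping. The differences from control were −0.06 ± 0.11, −0.11 ± 0.10 and 0.08 ± 0.10 (limma adjusted p = 0.789, 0.562 and 0.833), with 95% intervals inside −0.33 to 0.30. Park7 showed the weakest relation with the GC tilt (r 0.03, permutation p = 0.905). With the GC trend removed its differences from control were −0.12 ± 0.10, −0.18 ± 0.09 and 0.06 ± 0.09 (limma adjusted p = 0.503, 0.29 and 0.837). Of 30 antioxidant partners of PARK7, 1 rose and 1 fell after paraquat and 1 fell after TiO2, counts below the 10.4% and 6.4% of all genes called. After the mixture 0 were called and 3 had an unadjusted p under 0.05, beside 12.2% of all genes at that unadjusted threshold. Glutathione reductase Gsr fell from 434 ± 8.33 to 344 ± 22.4 after paraquat (−0.34 ± 0.09, limma adjusted p = 0.0191), and Gclc, which makes the first step of glutathione, fell from 737 ± 24.9 to 589 ± 48.8 after TiO2 (−0.33 ± 0.08, 0.0121). The Gclc call was held in all 18 alternatives.

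Fbxo7, the ligase subunit, had nearly the same mean in control, paraquat and TiO2. Control libraries read 219, 249.7, 196 and 209, paraquat libraries 228, 203 and 215, TiO2 libraries 205, 204, 248 and 206, and mixture libraries 171, 187, 223 and 204. The differences from control were −0.02 ± 0.11, −0.02 ± 0.10 and −0.16 ± 0.10 (limma adjusted p = 0.952, 0.947 and 0.589), and a fall of 0.37 in the mixture lies at the edge of the 95% interval. Of 19 SCF ligase genes and partners of FBXO7, 1 rose and 1 fell after each single exposure, beside 10.4% of all genes called after paraquat and 6.4% after TiO2. After the mixture 0 were called and 1 had an unadjusted p under 0.05, beside 12.2% of all genes at that unadjusted threshold. The neuronal F-box gene Fbxo2 rose by 0.64 ± 0.20 and 0.72 ± 0.19 (limma adjusted p = 0.0453 and 0.022). Its paraquat call was held in 4 of 16 alternatives and was lost with edgeR, with DESeq2 and without any 1 of the 3 paraquat libraries, and its TiO2 call was held in 11 of 16. The proteasome subunit gene Psma2 fell by 0.38 ± 0.11 after paraquat (0.0346) and the scaffold gene Cul1 by 0.29 ± 0.08 after TiO2 (0.0319).

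Uchl1, the abundant neuronal hydrolase, was higher in all 4 TiO2 libraries than in any control library without passing the test. Control libraries read 4251, 5386, 5216 and 4891, and TiO2 libraries 5626, 5876, 5677 and 5584. Paraquat libraries read 5372, 5341 and 5715, and mixture libraries 6171, 5384, 5717 and 5411, each group overlapping control by its lowest members. The differences from control were 0.15 ± 0.08, 0.21 ± 0.07 and 0.20 ± 0.07 (limma adjusted p = 0.22, 0.0876 and 0.225). Groups that did not overlap made up 12.5% of all genes in the TiO2 comparison. The TiO2 difference passed with DESeq2 (adjusted p = 0.0443) and without control library 2 (0.0391), and was 0.09 with the GC trend removed. Uchl1 rose with the GC tilt (r 0.63, rho 0.63, permutation p = 0.00766 and 0.0128, adjusted 0.0134 for r, r 0.55 without the 2 farthest libraries). Closest to Uchl1 over the libraries were Stmn4 (r 0.91), the autophagy gene Map1lc3a (0.90) and Rph3a (0.89). Of 12 ubiquitin genes and C-terminal hydrolases, 1 rose and 1 fell after paraquat and 1 rose after TiO2, beside 10.4% and 6.4% of all genes called. The deubiquitinase gene Otub1 rose from 1110 ± 54.6 to 1370 ± 49.8 and 1470 ± 39.6 (0.31 ± 0.07 and 0.41 ± 0.07, limma adjusted p = 0.00921 and 0.000554). Uchl4 fell by 0.54 ± 0.17 after paraquat (limma adjusted p = 0.05 after rounding). This call was held in 7 of 17 alternatives. It was lost without any 1 of the control or paraquat libraries and with the GC trend removed (0.107). Reads of Uchl4 may be shared with the similar gene Uchl3, which was not tested.

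Of 28 other genes linked to inherited parkinsonism, 2 rose and 1 fell after paraquat, 2 rose and 1 fell after TiO2, and 1 rose after the mixture, beside 10.4%, 6.4% and 1.19% of all genes called. Sncb, which encodes beta-synuclein, averaged 695 ± 77.9 in control, 1430 ± 368 after paraquat, 1200 ± 121 after TiO2 and 1110 ± 112 after the mixture. Its rises of 1.02 ± 0.13, 0.79 ± 0.12 and 0.67 ± 0.12 passed the test (limma adjusted p = 8.16e-05, 0.000408 and 0.0063). Unlike Vps35, Sncb stayed above control in the mixture, and its interaction was −1.13 ± 0.18 (limma adjusted p = 0.00078). Lrp10, a trafficking receptor gene, rose by 0.41 ± 0.11 after paraquat and 0.36 ± 0.10 after TiO2 (limma adjusted p = 0.0218 and 0.0357). Of the 46 calls against control that the naming rule picked from the pathway lists, 10 were held in every alternative run. They are Sncb after each exposure, Rab3a after each single exposure, Ywhag after paraquat, and March5, Rab3b, Otub1 and Gclc after TiO2. Removal of the GC trend ended 21, among them Lrp10, Tax1bp1, Smox and Fbxo2 after either single exposure, Cln6, Psma2, Otub1 and Dnm1l after paraquat, and Sqstm1, Pmpcb, Asah1 and Cul1 after TiO2. Some of these stayed just outside the threshold: Smox was 0.39 after paraquat (limma adjusted p = 0.0587) and 0.38 after TiO2 (0.0555), and Fbxo2 was 0.54 after TiO2 (0.0693). The comparisons against control share the same 4 control libraries, so calls that recur between exposures are not independent.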

How the data were processed

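The authors deposited a table of 15569 genes by 15 libraries from striatal RNA, made with the Lexogen SENSE kit and sequenced on a NextSeq500, per the labels' protocols. The deposited values are a normalised signal: whole read counts over a library size factor, as read from the values, in which 1 read is worth 0.6585 to 1.085 and 100% of values came out whole within 0.001. In 4 libraries this step lies so near 1 that recovery is claimed for 11. Bowtie2 2.3.2.2, DESeq2 2.1.8.3 and mm10 are named in the submitters' processing notes, while the sources used here do not name the counter, annotation or strand setting. Reads carry no molecular identifiers, so depth describes counting error only.

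Because the values are not raw counts, limma 3.58.1 (R 4.3.3, trend and robust options) on log2(value + 1) was the test and edgeR an alternative. The fit had a mean for each group and Benjamini-Hochberg adjustment over 15556 genes kept by filterByExpr of edgeR 4.0.16. Fold changes on this scale understate low genes. Alternatives were edgeR and DESeq2 1.42.0 on recovered reads, a pseudocount of 8, no filter, a mean of at least 50, TMM scaling, only the groups compared, a replicate block, removal of a lowess trend on GC content from each library (span 0.3), the last 2 together, and leaving out each library. Symbols of all 15569 genes matched GENCODE M21. In simulated data for paraquat against control (15556 genes), limma recovered 29% of 1.5-fold and 83% of 2-fold changes with 9 false calls. Genes were named if they were members, called members of the pathway lists (up to 4 for each list and comparison, by p), or the 3 genes most like a member. The members and lists were chosen with earlier results of these data known. Some of the genes this rule names are not reported here.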

Additional observations from a re-analysis of the deposited data

Results flagged for a closer look

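Atp13a2 in control library 2 read 510.8 normalised reads, apart from the other 3 controls (433.5 to 440.5). Fbxo7 in TiO2 library 3 read 247.9, apart from the other 3 TiO2 libraries (204.4 to 205.9). Both gaps exceeded Dixon's 95% critical value for a group of 4, in 2 of 21 groups tested, where chance gives about 1 in 20. The interaction was called for Vps35, at 0.699 on the log2 scale (limma adjusted p = 0.00242), and for Pink1, at −0.449 (limma adjusted p = 0.0434). With the GC trend removed it was 0.414 for Vps35 (limma adjusted p = 0.00345) and −0.155 for Pink1 (0.515). The GC tilt of the libraries moved with the groups, and its part cannot be told apart from that of the exposures. Vps35 was lower in all 3 paraquat libraries than in all 4 controls, while the mixture libraries were all higher than the TiO2 libraries. Groups that did not overlap made up 21.2% of all genes for paraquat against control and 6.71% for the mixture against TiO2.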

How the results depend on the processing

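The interaction and the overall group difference of Vps35 passed the threshold in all 24 alternatives. Of 591 log2 differences of the members recomputed under the alternatives, 534 kept their direction and side of the threshold. The number of members called after paraquat was 2 with DESeq2 and with a mean of at least 50, and 0 with the replicate block, with the GC trend removed and with both. Over all genes these settings called 1936, 1712, 1482, 1239 and 1250 genes in that order, against 1617 in the main fit. DESeq2 called 2 members after TiO2 and 1 for the mixture against TiO2, beside 1199 and 54 of all genes. For the interaction 1 member was called with the GC trend removed and 1 with block and trend together, beside 1141 and 1228 of all genes. Leaving out single libraries gave 0 to 3 members for paraquat and for TiO2, 0 to 1 for the mixture against TiO2 and 1 to 2 for the interaction.

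Genes called in the mixture numbered 302 with DESeq2, 290 with the replicate block and 383 with block and GC trend removed. For the mixture against paraquat they numbered 125 with DESeq2, 3 with TMM, 8 with only the groups compared, 2 with the GC trend removed and 5 with both. For the mixture against TiO2 they numbered 54 with DESeq2, 5 with the block, 6 with the GC trend removed and 25 with both. For paraquat against TiO2 they numbered 9 with DESeq2, 3 with the block and 4 with both, and for the interaction 1141 with the GC trend removed. Leaving out single libraries gave 665 (without paraquat 3) to 1754 (without control 2) for paraquat, 467 (without TiO2 3) to 1397 (without control 2) for TiO2, 52 to 164 for the mixture, 0 to 3 for the mixture against paraquat, 0 to 14 against TiO2, 0 to 11 for paraquat against TiO2 and 883 to 2313 for the interaction.

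The following values changed sign. With the GC trend removed, Fbxo7 was 0.061 after paraquat and 0.042 after TiO2, Uchl1 −0.005 after paraquat and 0.076 in the interaction, Atp13a2 −0.036 after TiO2 and 0.176 in the interaction, and the correlation of Vps35 with Atp13a2 was 0.316 (an alternative chosen after seeing the data) against −0.572. With the replicate block as well they were 0.045, 0.042, −0.036, 0.200 and 0.065 for Fbxo7 after paraquat and TiO2, Atp13a2 after TiO2 and in the interaction, and Uchl1 in the interaction. Leaving out single libraries moved Fbxo7 from −0.065 to 0.051 after paraquat and from −0.083 to 0.051 after TiO2, Park7 from −0.129 to 0.045 after paraquat, and Vps35 from −0.06 to 0.048 in the mixture and from −0.029 to 0.113 for paraquat against TiO2. The cause was not tested. In simulated data 29% of 1.5-fold changes were recovered, so differences of the size seen here could often not be detected with this number of libraries.

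The replicate numbers were not used as pairs: 8 of 21 same-numbered pairs of libraries correlated above 0.1 (−0.186 to 0.271), and 4 of 15 libraries correlated best with their own number. With the replicate block the paraquat difference of Vps35 was −0.278, 1482 genes were called for paraquat, 1354 for TiO2 and 1768 for the interaction, and Vps35 stayed called for TiO2.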
